A study of Mus musculus with 947 samples.

Results

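The RNAs described here are the mouse box H/ACA small nucleolar RNAs (snoRNAs) and the small Cajal body-specific RNAs (scaRNAs), taken as every RNA of the 2 deposited expression tables whose gene name starts with Snora or Scarna, with RNAs of identical values counted as 1. This gave 51 RNAs of 7883 in the aging cohort, 42 of them Snora and 9 of them Scarna (Scarna2, Scarna3a, Scarna3b, Scarna6, Scarna8, Scarna9, Scarna10, Scarna13 and Scarna17), and 50 of 5248 in the parabiosis cohort, where Snora35 was not analysed. A pair of entries named Snora16a and a pair named Snora43 are overlapping annotations of 1 locus each, and the Snora16a entries differed in 86 of 768 aging libraries, by at most 0.246 rpmm (reads per M mapped reads, where M is mega).

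Small RNA libraries of the aging cohort came from C57BL/6JN mice perfused with PBS, at 10 ages from 1 month to 27 months (1 month, then every 3 months from 3 months on), of both sexes up to 21 months and of males only after that. The 768 libraries used (552 from males and 216 from females) covered 16 tissues: bone, bone marrow, brain, heart, kidney, limb muscle, liver, lung, pancreas, skin, small intestine, spleen, brown fat (BAT) and the gonadal (GAT), mesenteric (MAT) and subcutaneous (SCAT) white fat depots. A tissue had 31 to 56 libraries, and a tissue at 1 age had 1 to 6 (median 5). The parabiosis cohort held 176 libraries of 6 tissues (GAT, heart, kidney, limb muscle, liver and MAT) from 30 male mice, surgically joined for 5 weeks in 15 pairs. All of these mice were therefore operated on and shared a circulation, the controls included. The pairs were 7 heterochronic ones, of a young mouse (HY) and an aged mouse (HA), and 8 isochronic ones, of young mice (IY) or of aged mice (IA). Aged partners were 19 months old and of C57BL/6JN or C57BL/6J, HY mice were 4 months old, and IY mice were 3 or 4.5 months old. In the study's methods the 4-month males were the GFP-transgenic ones and the other young males C57BL/6JN, so that strain cannot be told apart from the partner in HY − IY, nor from age in HA − HY. The division of the aged strains between HA and IA is not given here. A part of strain in HA − IA and IA − IY was not tested. Each group had 6 to 8 libraries per tissue.

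Box H/ACA snoRNAs fold into hairpins joined by a hinge with the H box, end in an ACA box, and assemble with dyskerin, the enzyme that converts chosen uridines of ribosomal RNA into pseudouridine. Most are cut out of introns of host genes, many of which encode ribosomal proteins and translation factors. The scaRNAs carry a signal that keeps them in Cajal bodies, where they guide modification of spliceosomal snRNAs: Scarna2 and Scarna9 belong to the box C/D class that guides methylation, Scarna17 likewise, Scarna6 and Scarna10 hold both kinds of box, and Scarna3a, Scarna3b, Scarna8 and Scarna13 are of box H/ACA. Snora73a and Snora73b are the U17 RNAs, which take part in cutting the ribosomal precursor rather than in modifying it.

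The sequences of the RNAs on which the results turn are given first, 5′ to 3′ on the RNA strand, from the GENCODE M21 annotation of mm10. Capitals mark the hinge match to the H box, ANANNA, and the letters ACA where they stand 3 bases before the 3′ end. Snora35 is shown for its tissue pattern, and it lies in an intron of Htr2c, the serotonin 2C receptor gene, at chrX:146994381-146994508 (+).
Snora35: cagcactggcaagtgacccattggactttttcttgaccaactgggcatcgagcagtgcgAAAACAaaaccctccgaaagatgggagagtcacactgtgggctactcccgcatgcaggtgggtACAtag
Snora24 is shown for its level in bone marrow, and it lies within an exon of an annotated transcript of Snhg8, a snoRNA host gene without a protein product, at chr3:123507937-123508066 (−).
Snora24: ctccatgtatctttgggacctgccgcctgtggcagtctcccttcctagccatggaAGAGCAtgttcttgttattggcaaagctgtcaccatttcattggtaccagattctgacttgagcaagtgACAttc
Scarna3a (intron of Cop1, chr1:159340283-159340422, +), Scarna3b (intron of Dcaf5, chr12:80391613-80391751, −), Scarna8 (intron of Haus6, chr4:86586453-86586583, −) and Snora44 (exon of the noncoding host Snhg12, chr4:132309941-132310069, +) are shown for their relation to age.
Scarna3a: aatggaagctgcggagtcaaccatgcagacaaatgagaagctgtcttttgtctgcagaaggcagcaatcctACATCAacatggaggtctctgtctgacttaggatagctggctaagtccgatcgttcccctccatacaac
Scarna3b: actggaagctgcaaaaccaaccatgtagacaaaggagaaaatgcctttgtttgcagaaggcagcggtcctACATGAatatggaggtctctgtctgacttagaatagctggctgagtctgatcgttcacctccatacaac
Scarna8: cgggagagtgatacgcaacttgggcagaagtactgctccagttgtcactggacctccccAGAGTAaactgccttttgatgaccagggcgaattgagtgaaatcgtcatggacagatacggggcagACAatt
Snora44: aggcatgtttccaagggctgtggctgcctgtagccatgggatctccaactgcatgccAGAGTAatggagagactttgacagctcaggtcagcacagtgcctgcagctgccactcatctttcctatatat
Snora34 (intron, chr15:98519716-98519853, −) and Snora2b (exon of an annotated transcript, chr15:98526346-98526482, −) share the host gene Kansl2 and are shown for the hearts of parabiotic mice.
Snora34: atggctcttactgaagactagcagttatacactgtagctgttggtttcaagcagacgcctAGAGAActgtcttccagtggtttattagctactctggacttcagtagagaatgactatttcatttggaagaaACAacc
Snora2b: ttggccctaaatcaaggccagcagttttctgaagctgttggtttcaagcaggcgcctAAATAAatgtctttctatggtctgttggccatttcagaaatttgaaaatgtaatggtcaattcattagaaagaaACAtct
Scarna3a and Scarna3b, of 140 and 139 bases, differ by 20 single-base edits, and Snora34 and Snora2b, of 138 and 137 bases, by 42. Snora73a and Snora73b, of 205 bases each, differ by 7, so that reads of 1 of them may have been given to the other. The ACA box stood at its usual place in 35 of 42 Snora sequences (83.3%), in 2 of 9 Scarna sequences (22.2%) and in 0 of 98 annotated Snord (box C/D snoRNA) sequences. The looser ANANNA motif was found in the middle of 39 of 42 Snora sequences (92.9%) and of 44 of 98 Snord sequences (44.9%), on the RNA strand only. Reads were at most 50 bases long, so a level here is that of fragments of these RNAs, which are 70 to 414 bases long.

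Levels are given as deposited, in rpmm, and 1 rpmm was 20.1 reads at the median depth. Libraries held a median of 20.1 M reads in both cohorts (2.29 to 167 M in the aging cohort, 9.2 to 47.6 M in the parabiosis cohort). The labels of tissues were checked with miRNAs: 18 of 18 markers assigned to 1 tissue, or to either of 2, were highest there. Those shared by kidney and small intestine, miR-192-5p and miR-194-5p, were highest in small intestine. Spleen, marrow, bone, lung and the white fat depots had no assigned marker. By the miRNA profile, 10 aging libraries and 4 parabiosis libraries were closest to another tissue, among them all 3 of the 27-month MAT libraries. Libraries of 5 tissues stood apart by the number in their titles, in sets of 12 numbers: 61 libraries of brain (25 to 36), kidney (1 to 12), lung (37 to 48), MAT (49 to 60) and spleen (37 to 60) belonged to sets whose median sum over the 51 RNAs was more than 2 times that of the other sets of their tissue. They are described after the tissue levels. The counts of tissue calls in spleen, marrow and brain are given with and without them. Where the tissue difference of a named RNA in these 5 tissues is given, its value without them is given too. In bulk tissue, fewer cells of a type and less RNA per cell cannot be told apart.

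Per 100 bases of annotated length, the RNA with the highest mean over the tissue medians was Scarna17 (600 rpmm), a guide for the U4 and U12 snRNAs. It was followed by Snora65, Snora81, both Snora16a entries, Snora64, Snora69, Snora68, Snora33 and Snora9, from 215 down to 61.4 rpmm per 100 bases. Scarna17 had its highest median in liver (1420 rpmm) and its next in heart (901 rpmm), against 118 rpmm in bone, the lowest. The limma difference of a tissue from the mean of the other 15, on the log2(rpmm + 1) scale, was 2.23 ± 0.144 (SE, n = 51, adjusted p = 6.29e-46) in liver and 1.53 ± 0.141 (n = 53, adjusted p = 2.30e-24) in heart. Liver and heart libraries overlapped, with 8 of 51 liver libraries above the highest heart library.

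A tissue was called high for an RNA where limma gave an adjusted p under 0.05 and a log2 difference over 1. Of 816 pairs of an RNA and a tissue, 75 were called (unadjusted p under 0.05 in either direction in 563), and 7.95% of all pairs tested over the whole table. Spleen held 36 of the 75 calls (36 of 51 RNAs, where 11.7% of all RNAs were called), marrow 12 (14.8%) and brain 7 (10.6%). BAT held 7, liver 4, kidney 3, bone and lung 2 each, GAT and heart 1 each. Of all 5177 RNAs tested, 1029 were called in BAT, 137 in liver, 194 in kidney, 1522 in bone and 228 in lung. In GAT 194 of all RNAs were called and in heart 124. Without the sets apart, spleen held 21 of 62 calls, marrow 14 and brain 4, where 458, 838 and 573 of all 5177 RNAs were called. The median difference of the 51 RNAs in brain was then −0.529, and Scarna10, Scarna13 and Snora47 lost their brain calls. With each library scaled by the median ratio of its RNAs, spleen held 31 and marrow 7, where 540 and 363 of all RNAs were called. With each library scaled by its summed snoRNA reads, spleen held 2, marrow 4, BAT 43 and bone 13. Under that scaling 30 of all 5177 RNAs were called in spleen, 276 in marrow, 3671 in BAT and 2465 in bone. Brain held 13 with median-ratio scaling and 8 with the snoRNA sum, where 748 and 556 of all RNAs were called. The Snord RNAs had a median difference of 1.37 in spleen beside 1.14 for the 51 RNAs.

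RNAs hosted by genes for ribosomal proteins and translation factors were called in spleen in 15 of 15 cases, with a median log2 difference of 1.75, where 11.7% of all RNAs were called and their median was −0.0427. Most of the 51 RNAs were called there as well, 36 of 51 with these included (median 1.14). Without the sets apart, to which 20 of the 55 spleen libraries belong, 9 of 15 were called (median 1.11), where 8.85% of all RNAs were. Of the 51 RNAs 21 were called in that setting (median 0.838). Of the 15, 13 were called with median-ratio scaling and 1 with scaling by the snoRNA sum, beside 31 and 2 of the 51 RNAs. Snora65, in the ribosomal protein gene Rpl12, had a spleen median of 1080 rpmm and a liver median of 474 rpmm, and its spleen difference was 2.65 ± 0.155 (SE, n = 55, adjusted p = 1.69e-54), or 1.81 without the sets apart. Snora69, in Rpl39, had a median of 455 rpmm in spleen and 192 rpmm in marrow, and 34 of 55 spleen libraries lay above the highest marrow library. Its difference was 2.31 ± 0.155 (adjusted p = 7.53e-43), and without the sets apart its spleen median was 378 rpmm and the difference 1.73. Snora81, in the initiation factor gene Eif4a2, had medians of 890 rpmm in spleen and 504 rpmm in liver, with a difference of 1.92 ± 0.154 (adjusted p = 1.01e-31), and it was not called without the sets apart (median 721 rpmm, difference 0.964). For 32 of 51 RNAs the highest tissue median was at most 1.5 times the next one, so that the order of the leading tissues was not resolved for them.

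Bone marrow was the tissue with the highest median of Snora24. Its median was 89.6 rpmm in marrow, 31.9 rpmm in bone and 1.94 rpmm in brain, the lowest, and the marrow difference was 3.18 ± 0.11 (SE, n = 56, adjusted p = 3.05e-123). Marrow and bone overlapped, with 0 of 56 marrow libraries above the highest bone library. Bone was called as well (1.75 ± 0.118, n = 48, adjusted p = 2.12e-43), and both calls held under all 3 scalings and without the sets apart. Snora33, in Rps12, had medians of 328 rpmm in marrow and 247 rpmm in spleen, with a marrow difference of 1.91 (1.97 without the sets apart). For Snora33 0 of 56 marrow libraries lay above the highest spleen library. Of the U17 RNAs, Snora73a had its highest median in marrow (123 rpmm, next spleen with 77.7 rpmm, difference 1.84 ± 0.0944, adjusted p = 5.72e-68), while Snora73b, at 36.1 rpmm in spleen and 35.6 rpmm in bone, did not separate its leading tissues. Snora7a, in Rpl32, and Snora21, in Rpl23, had their highest medians in spleen (103 and 100 rpmm), and without the sets apart their spleen differences, 0.873 and 0.913, were under the size of a call.

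Snora35 was measured almost only in brain and lung. Its level in brain was 24.7 rpmm at the lowest, 60.7 rpmm at the median and 267 rpmm at the highest (n = 51). In lung it was 0, 6.46 and 40 rpmm (n = 55), with 54 libraries above 0. The other 14 tissues had medians of 0 to 0.296 rpmm, and no other tissue passed the filter of 1 rpmm in 10% of libraries. The brain median was 9.4 times the lung median, and 47 of 51 brain libraries lay above the highest lung library. The log2 difference was 5.98 ± 0.0516 (SE) in brain and 2.46 ± 0.0498 in lung (adjusted p = 9.47e-237), or 5.58 and 2.26 without the sets apart, in whose brain libraries the median was 210 rpmm beside 57.0 rpmm in the others.

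Brain was also the tissue with the highest medians of 3 scaRNAs. Scarna3b had a median of 186 rpmm in brain and 111 rpmm in liver (difference 1.53 ± 0.0825, SE, n = 51, adjusted p = 2.13e-62). Scarna3a had 130 rpmm in brain and 79.5 rpmm in GAT (1.30 ± 0.0746, adjusted p = 1.65e-56), and Scarna13, a guide for U2 and U5, had 15.1 rpmm in brain and 12.3 rpmm in BAT (1.12 ± 0.0599, adjusted p = 2.33e-63). Without the sets apart the Scarna3b and Scarna3a differences were 1.70 and 1.49, and that of Scarna13 was 0.973, below the fold required for a call. Snora36b, named because it recurs in the comparisons of age, had 183 rpmm in brain and 116 rpmm in GAT (1.86 ± 0.108, adjusted p = 1.08e-55). Its brain difference was 1.95 without the sets apart. Brain overlapped the next tissue for each of the 4. Of 51 brain libraries, 30 lay above the highest library of that tissue for Scarna3b, 0 for Scarna3a, 7 for Scarna13 and 1 for Snora36b.

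The remaining scaRNAs had other leading tissues. Scarna2, a guide for U2 snRNA, had its highest median in spleen (170 rpmm, next lung with 119 rpmm), and its spleen difference was 1.36 ± 0.101 (SE, adjusted p = 1.87e-36), or 1.27 without the sets apart. Scarna10, a guide for U5, had 65.3 rpmm in marrow (1.77 ± 0.0928, adjusted p = 1.69e-65). Scarna6, also linked to U5, had 33.6 rpmm in liver and 33.4 rpmm in spleen, which are not separable. Scarna8 (9.05 rpmm) and Scarna9 (9.09 rpmm), both of U2, were lowest in amount and highest in spleen, with differences of 1.60 ± 0.0815 and 1.37 ± 0.0797 (1.16 and 1.39 without the sets apart). Snora47 and Snora17, outside the rule for named RNAs, were picked after their values were seen. Snora47 had its highest median in kidney (20.1 rpmm, next BAT with 8.32 rpmm, difference 2.14 ± 0.107, or 1.82 without the sets apart) and Snora17 in BAT (43.1 rpmm, next marrow with 19.5 rpmm, difference 2.03 ± 0.138). In BAT the summed Snord level ranged from 3170 to 94000 rpmm between libraries, and the part of this spread in the BAT values was not tested.

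The libraries of the title sets apart differed in the profile of these RNAs as well as in their summed level. Since the sets were singled out by these sums, the following is a description with no test. In brain the 51 RNAs summed to a median of 13800 rpmm in the set of 12 libraries and to 2610 rpmm in the other sets, and in kidney to 14200 rpmm in 9 libraries and 3860 rpmm. In brain 45 of 51 RNAs had the higher median in the set, 41 by more than 2 times, and the 2 groups of libraries did not overlap for 39 of 51, where 38.9% of all RNAs measured in brain did not overlap. In kidney 45 were higher, 38 by more than 2 times, and 22 of 51 did not overlap, against 19.7% of all RNAs. Lung had 48 higher and 0 without overlap (0.121% of all RNAs), MAT 47 and 3 (0.536%), and spleen 42 and 1 (0.0882%).

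The ratio was uneven between RNAs. Snora20, in an intron of the chaperonin gene Tcp1 and chosen here for its size after its values were seen, had a brain median of 822 rpmm in the set and 24.5 rpmm in the others, or 33.6 times as much. Snora65 had 3210 against 150 rpmm, Snora75, in the nucleolin gene Ncl, 331 against 12.3 rpmm, and Snora52, in Rplp2, 151 against 6.54 rpmm. Scarna17 went the other way, with 98.4 rpmm in the set and 441 rpmm in the others, and its log2 ratio was −2.15 in brain, −1.85 in kidney, −0.714 in lung, −0.948 in MAT and −1.09 in spleen. Scarna3a (66.1 against 135 rpmm) and Scarna3b (113 against 201 rpmm) were lower in the brain set too. Across the 51 RNAs, the log2 ratios of kidney, lung, MAT and spleen correlated with those of brain at Pearson r = 0.951, 0.925, 0.889 and 0.871. These are ratios of libraries of 1 table, and the RNAs of a library share its depth. In the brain set the summed snRNA genes (Rnu) stood at 249000 rpmm beside 26300 rpmm, and the Snord RNAs at 56500 beside 95200 rpmm. The part of these values in the ratios was not tested.

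**Figure D1:**
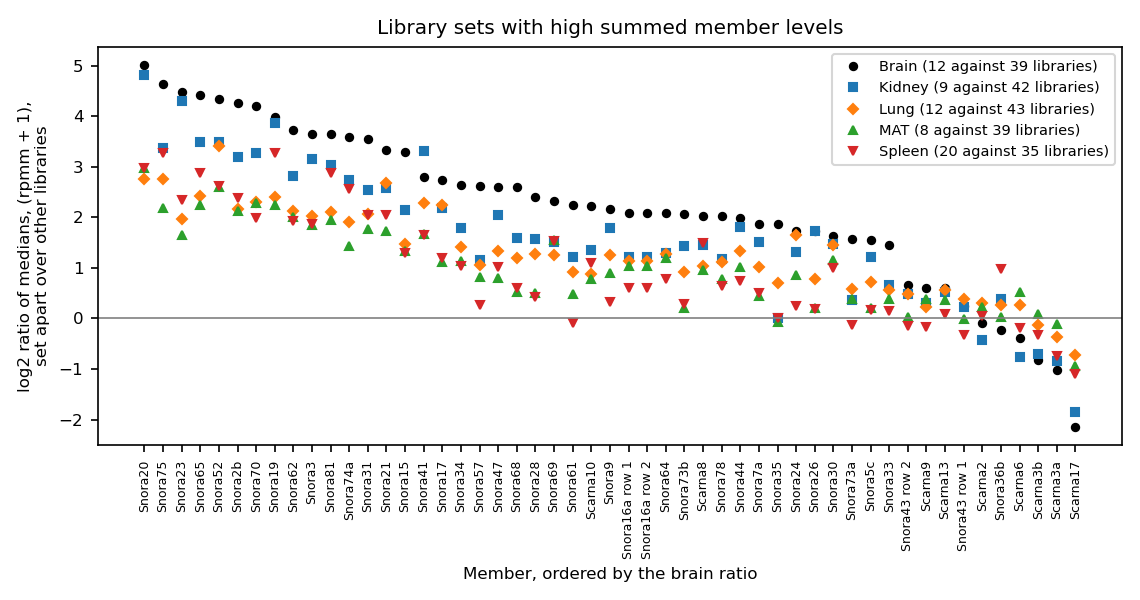
Log2 ratio, after adding 1 rpmm, of the median level in the title set apart to that in the other libraries of the same tissue, for each of the 51 RNAs (horizontal axis, ordered by the brain ratio), in brain, kidney, lung, MAT and spleen. Most points lie above 0, with Snora20 at 5.01 in brain, while Scarna17 lies below 0 in all 5 tissues.

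Age was related to these RNAs in few tissues. Spearman's rho of the level with age was computed in each tissue, with p from 100000 shuffles adjusted within the tissue over all RNAs past the filter, and called where the absolute rho was over 0.5 and the adjusted p under 0.05. Of 799 pairs of an RNA and a tissue, 6 were called, all rising, where 2.22% of all pairs were called and 0.957% called rising. On adjusted p alone 19 were called, 18 of them with a positive rho, where 3.77% of all pairs were. No RNA was called in 3 tissues or more.

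Bone held 4 of the 6 calls, where 1.24% of all RNAs rose, and all were scaRNAs. Scarna3b in bone was 14.3 rpmm at the lowest, 20.4 at the median and 24.3 at the highest at 1 month, 18.2, 25.6 and 32.9 rpmm at 3 months, and between 27.7 and 58.9 rpmm at 27 months (median 40.7, n = 4). The 27-month libraries lay above every 1-month library but overlapped those of 3 months, and rho was 0.570 over 48 libraries (permutation test, adjusted p = 0.00417). Scarna3a went from 19.6, 25.8 and 28.9 rpmm at 1 month to 38, 44.8 and 50.9 rpmm at 27 months, without overlap (rho 0.558, permutation test, adjusted p = 0.00633). Scarna2 went from 7.79, 20.9 and 39.6 rpmm to 47.3, 70.2 and 99 rpmm (rho 0.557, adjusted p = 0.00464), and Scarna8 from 1.02, 2.09 and 3.28 rpmm to 4.61, 5.56 and 8.91 rpmm (rho 0.508, adjusted p = 0.0207), both also without overlap of these ages.

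Of the 9 scaRNAs, 9 had a rho above 0 in bone (median 0.418), and of 41 Snora RNAs tested 37 did (median 0.148). The median rho in bone was 0.114 over all RNAs, 0.16 over Snord and 0.227 over Rnu RNAs. Without the 1-month libraries none of the 4 was called: rho was 0.396 for Scarna3b, 0.390 for Scarna3a and 0.416 for Scarna2 (adjusted p = 0.425 for each) and 0.344 for Scarna8 (adjusted p = 0.619). Without the 24- and 27-month libraries Scarna3b (0.576) and Scarna3a (0.536) kept their calls and Scarna2 (0.411) and Scarna8 (0.39) did not. Leaving out 1 library at a time moved rho of Scarna3b between 0.544 and 0.617 and that of Scarna8 between 0.478 and 0.552. None of the 4 was called with median-ratio scaling (rho 0.487 for Scarna3b, 0.395 for Scarna3a, 0.453 for Scarna2 and 0.351 for Scarna8) or with scaling by the snoRNA sum (0.266, 0.156, 0.466 and 0.337), and with plate in the model Scarna2 (adjusted p = 0.0652) and Scarna8 (adjusted p = 0.117) were not. Some markers of other cell types moved with age in the same bone libraries. Of striated muscle, miR-133a-3p had a rho of 0.619, miR-1a-3p of 0.518 and miR-206-3p of 0.176. The skin markers miR-203-3p and miR-205-5p had 0.59 and −0.0459, and the blood cell markers miR-150-5p, miR-142a-3p and miR-223-3p had 0.535, 0.257 and 0.0379. The remaining markers lay between −0.112 and 0.456, and the part of any marker in the result was not tested. Depth had a rho of 0.178 with age there.

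**Figure D2:**
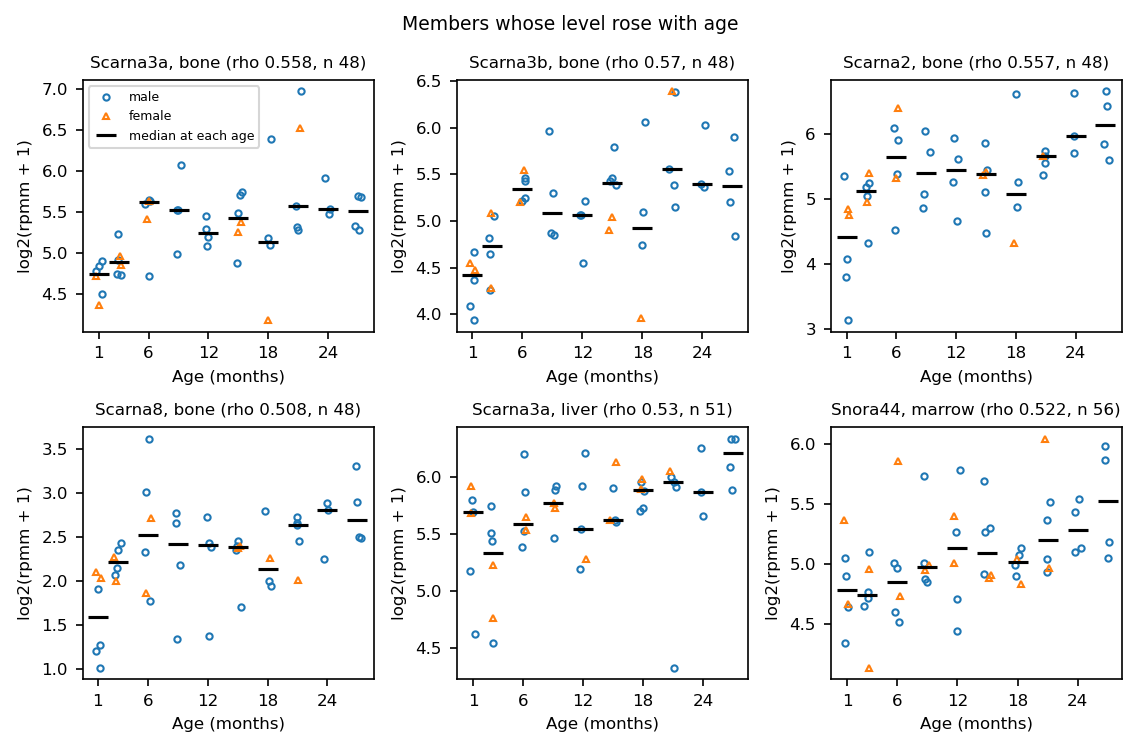
Level as log2(rpmm + 1) against age in months for the 6 pairs of an RNA and a tissue called with age, with each library as a point (circles for males, triangles for females) and the median of each age as a dash. In each panel the 27-month median lies above the 1-month median, for Scarna2 in bone at 70.2 against 20.9 rpmm.

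Scarna3a also rose in liver, from 22.3, 39.5 and 52.6 rpmm (lowest, median, highest) at 3 months to 58.3, 73.5 and 79.9 rpmm at 27 months, without overlap. At 1 month it was 23.6, 50.8 and 59.6 rpmm, with a median above that of 3 months and a small overlap with 27 months. Its rho was 0.530 over 51 libraries (permutation test, adjusted p = 0.00543), and 0.423 without the 24- and 27-month libraries (adjusted p = 0.0916). In marrow Snora44, which shares the host Snhg12 with Snora16a and Snora61, was 16.6, 25.7 and 33.4 rpmm at 3 months and 32.2, 46.5 and 62.3 rpmm at 27 months, with a small overlap (rho 0.522 over 56 libraries, permutation test, adjusted p = 0.00339). At 1 month Snora44 was 19.3, 26.6 and 40.4 rpmm there. Without the 24- and 27-month libraries its rho was 0.400 (adjusted p = 0.0392), under the size required for a call. Leaving out 1 library at a time gave 0.497 to 0.571 for Snora44. With median-ratio scaling neither was called (0.474 for Scarna3a and 0.414 for Snora44), and with scaling by the snoRNA sum Scarna3a was (0.539) and Snora44 was not (0.278, adjusted p = 0.335). With plate in the model Snora44 was under the size of a call (0.455). In the liver libraries miR-142a-3p of blood cells had a rho of 0.465 with age, miR-150-5p 0.378 and miR-375-3p of pancreas 0.433, with the other markers between −0.0288 and 0.3. In the marrow libraries miR-203-3p had 0.581 and the other markers lay between −0.218 and 0.225. The part of these markers was not tested.

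Over tissues the same few RNAs had rho above 0 most often, as a description. Snora44 had a positive rho in 16 of 16 tissues (median 0.309), Snora36b in 15 (median 0.356), Scarna3a, Scarna3b and Scarna8 in 14 each (medians 0.278, 0.273 and 0.11), while Scarna10 did in 5 (median −0.141). Scarna3b passed the adjusted p but not the size in liver (0.453) and marrow (0.472), and its rho was 0.0361 in brain, where its level was highest. Scarna3a had 0.475 in skin and 0.0167 in brain. In skin 49 of 50 RNAs had a positive rho and in GAT 2 of 41 Snora RNAs did (median −0.236 there), with Snora15 at −0.489 the one negative value past the adjusted p. The median rho in skin was 0.012 over all RNAs, 0.221 over Snord and 0.184 over Rnu RNAs. In GAT these medians were −0.054, 0.115 and −0.179.

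Against 3 months, 3 of 5692 comparisons of an RNA at a later age passed limma's adjusted p of 0.05 (unadjusted p under 0.05 in 492), and 0.728% of all comparisons did. Scarna3b in liver was 44.5, 82.8 and 98.1 rpmm at 3 months (lowest, median, highest of 6) and 127, 137, 155 and 171 rpmm at 27 months, without overlap, a log2 difference of 0.942 ± 0.274 (SE, limma, adjusted p = 0.0472). Scarna8 in MAT was 1.53, 1.66, 1.78, 2.1 and 3.75 rpmm at 3 months and 4.68, 6.13 and 7.68 rpmm at 27 months, a difference of 1.2 ± 0.392 (limma, adjusted p = 0.0436). All 50 RNAs tested were higher on average at 27 months there (median difference 0.877), and the median over all RNAs of MAT was 0.734. With median-ratio scaling Scarna8 had a difference of 0.543 (adjusted p = 0.663), and Scarna3b in liver one of 0.678 (adjusted p = 0.343). All 3 of these 27-month libraries had the miRNA profile of another fat depot, so that this comparison has no value without them. Only 1 of 699 comparisons of 21 with 3 months was called (86 at unadjusted p under 0.05), where 2.1% of all were. Snora52, in the ribosomal protein gene Rplp2, was 27.4, 27.5, 34.1, 40.1 and 85 rpmm in small intestine at 3 months and 7.56, 17.3 and 53.9 rpmm (lowest, median, highest of 6) at 21 months, and the ages overlapped (−1.02 ± 0.334, limma, adjusted p = 0.0444). The call was lost without the 3-month replicate 07, 29 or 24 or the 21-month replicate 49, with differences from −1.32 to −0.742. It was also lost with median-ratio scaling (adjusted p = 0.0981), the snoRNA sum (0.143), title set (0.146) and plate (0.153).

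Between 1 and 3 months, 6 of 699 comparisons were called (101 at unadjusted p under 0.05), and 2.48% of all were. In MAT 5 RNAs were called higher at 3 months, where 5.18% of all RNAs were. Scarna3b was 8.13, 44.8 and 45.9 rpmm at 1 month and 60.2, 67.7, 68.2, 69.3 and 82.3 rpmm at 3 months (1.38 ± 0.352, limma, adjusted p = 0.00484). Snora36b was 6.27, 56 and 60 rpmm and then 60.2, 68.9, 73.1, 73.8 and 77.4 rpmm (1.28 ± 0.401, limma, adjusted p = 0.0185). Scarna17 was 14.2, 212 and 280 rpmm and then 219, 293, 321, 419 and 532 rpmm (1.82 ± 0.609, limma, adjusted p = 0.0243). Scarna2 and Scarna3a were called as well, at 1.2 ± 0.445 (adjusted p = 0.0358) and 0.797 ± 0.313 (adjusted p = 0.0446). For all 5 the lowest value was that of 1 library, replicate 21 at 1 month, and without it none of the 5 was called, with differences of 0.598 for Scarna3b (adjusted p = 0.572), 0.277 for Snora36b, 0.48 for Scarna17, 0.608 for Scarna2 and 0.403 for Scarna3a (adjusted p = 1 for these). In limb muscle Snora44 was 5.59, 5.71, 8.79 and 13.3 rpmm at 1 month and 19.8, 26.1 and 34 rpmm (lowest, median, highest) at 3 months, without overlap (1.57 ± 0.41, limma, adjusted p = 0.0492). This call held without 3 of the 10 libraries in turn and was lost without the others, with adjusted p from 0.0259 to 0.125. It was lost with median-ratio scaling (adjusted p = 0.0888), title set (0.17) and plate (0.152).

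The sexes, compared from 1 to 21 months with age in the model, differed for 7 of 799 pairs of an RNA and a tissue (80 at unadjusted p under 0.05), against 0.822% of all pairs, and all 7 were higher in females. In GAT 2 RNAs were called, where 3.24% of all RNAs were higher in females. Snora41, in the elongation factor gene Eef1b2, was 15.8, 24.8 and 32 rpmm (lowest, median, highest) in 13 female libraries and 6.85, 14.8 and 39.7 rpmm in 20 male ones (0.678 ± 0.19, limma, adjusted p = 0.0351). Snora74a was 15.6, 27.9 and 62.8 rpmm in females and 6.97, 19.2 and 32.9 rpmm in males (0.764 ± 0.222, limma, adjusted p = 0.0447). In skin 5 RNAs were called, where 1.72% of all were higher. Snora5c was 7.95, 15.1 and 38.6 rpmm in 13 female libraries and 4.3, 9.43 and 17.8 rpmm in 28 male ones (0.657 ± 0.179, limma, adjusted p = 0.0147). Snora81 was 155, 336 and 757 rpmm against 106, 227 and 972 rpmm (0.596 ± 0.179, limma, adjusted p = 0.0341), and Snora7a 29.1, 60.2 and 116 rpmm against 25.8, 39.6 and 77.5 rpmm (0.531 ± 0.164, limma, adjusted p = 0.0413). The other 2, Snora30 and Scarna13, had differences of 0.638 and 0.452. The sexes overlapped for each of them, and with median-ratio scaling Snora5c alone was called (adjusted p = 0.0296). Without the GAT library closest to another tissue, neither GAT call held (0.7, adjusted p = 0.054, and 0.691, adjusted p = 0.111). The rho with age did not differ past the threshold between females and males for any of the 6 pairs called with age (permutation test, unadjusted p from 0.21 to 0.837).

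In the parabiosis cohort, the aged heterochronic mice were compared with the aged isochronic ones (HA − IA), which asks what a young partner changes in an aged mouse. Here 3 of 294 pairs of an RNA and a tissue were called (38 at unadjusted p under 0.05), against 1.06% of all pairs. All 3 were lower in heart, where 2.23% of all RNAs were called lower. Snora34 was 10.7, 18.4 and 21.2 rpmm (lowest, median, highest of 7) in HA and 14.4, 31.5 and 51.3 rpmm (of 8) in IA, beside 14.9, 21.7 and 34.8 rpmm in IY and 16.3, 20.9 and 43.9 rpmm in HY. The difference was −0.904 ± 0.232 on the log2(rpmm + 1) scale (SE, limma, adjusted p = 0.0154). Snora2b, from the same host gene, was 8.43, 12.4 and 15.3 rpmm in HA and 9.99, 19.8 and 42.7 rpmm in IA (−0.852 ± 0.231, limma, adjusted p = 0.0201), beside medians of 14.9 and 15.6 rpmm in IY and HY. Snora57 was 6.28, 9.63 and 12.8 rpmm in HA and 7.92, 14.8 and 19.6 rpmm in IA (−0.577 ± 0.181, limma, adjusted p = 0.0493). HA and IA overlapped for each. With the pair number as a block, to allow for joined mice within IA, Snora57 was not called (adjusted p = 0.0883), nor was it with scaling by the snoRNA sum (adjusted p = 0.0511).

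Of the 50 RNAs, 44 had a lower mean in HA than in IA hearts, with a median log2 difference of −0.306, while the median over all RNAs tested in heart was 0.123. Of the heart markers, miR-208a-3p had medians of 10900 rpmm in HA and 10800 rpmm in IA, and miR-499-5p 938 and 1630 rpmm. Of striated muscle, miR-1a-3p had 91100 and 80500 rpmm and miR-133a-3p 81200 and 89700 rpmm. Markers of other tissues and of blood went both ways. In HA and IA, miR-9-5p had 78.6 and 58.3 rpmm, miR-194-5p 54.6 and 41.9, miR-375-3p 3.41 and 0.887, miR-142a-3p 361 and 424 and miR-451a 967 and 1240 rpmm. Of the other blood markers, miR-150-5p had 765 and 633 rpmm, miR-223-3p 127 and 119 and miR-144-3p 224 and 239 rpmm. The BAT markers miR-193b-3p and miR-365-3p had 23.3 and 159 rpmm in HA and 33 and 194 rpmm in IA, and Snora34 and Snora2b themselves had medians of 49.6 and 48.1 rpmm in BAT of the aging cohort. The ranges of HA and IA overlapped for each of these markers, and their part in the differences was not tested. The groups were spread unevenly over library pools: 6 of 8 IA hearts were in the pool Para-7 and 2 in Para-8, and the HA hearts were 3 in Para-7, 2 in Para-12 and 1 each in Para-6 and Para-8. With the pool in the model none of the 3 was called (−0.817, adjusted p = 0.0724; −0.785, adjusted p = 0.0714; −0.433, adjusted p = 0.241). Leaving out 1 library in turn kept the call of Snora34 in 14 of 15 cases, of Snora2b in 10 and of Snora57 in 7, and Snora34 lost it without the HA replicate 1A. The difference of the partner effect between aged and young hearts, (HA − IA) − (HY − IY), was −0.969 ± 0.328 for Snora34 (limma, adjusted p = 0.107) and −0.923 for Snora2b (adjusted p = 0.108) and was past the threshold for 0 of 294 pairs of an RNA and a tissue (limma, 19 at unadjusted p under 0.05), where 0.135% of all pairs were.

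**Figure D3:**
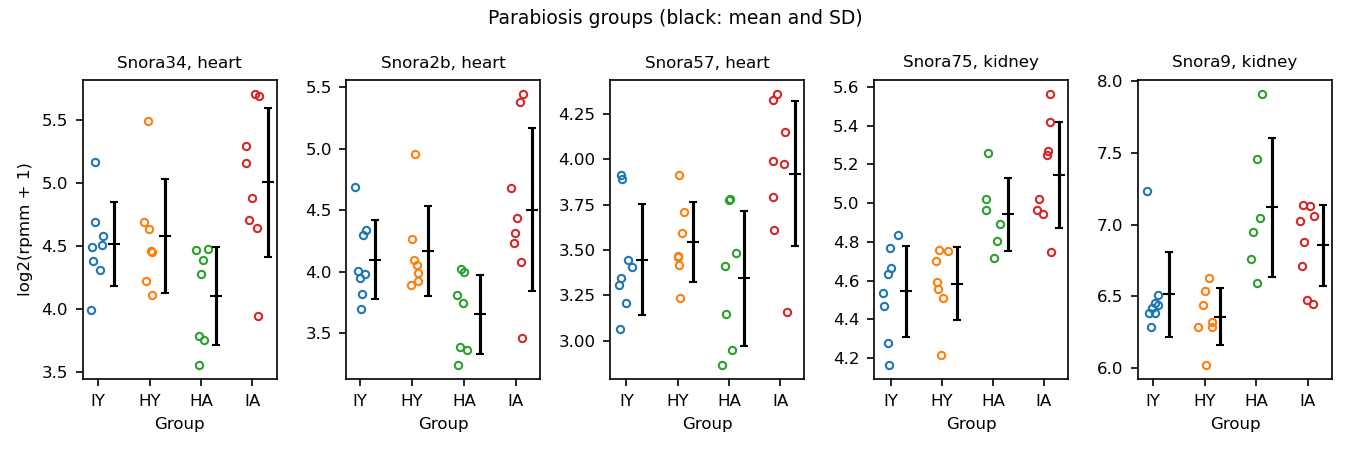
Level as log2(rpmm + 1) of the 5 RNAs called between parabiosis groups, in heart (Snora34, Snora2b and Snora57) and kidney (Snora75 and Snora9), with each library as a point by group (IY, HY, HA, IA) and the group mean and SD in black. The hearts of IA mice reach 51.3 rpmm of Snora34 and those of HA mice 21.2 rpmm, and the groups overlap.

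The young heterochronic mice compared with the young isochronic ones (HY − IY) gave 0 of 294 calls with limma, and 0% of all pairs were called. At unadjusted p under 0.05 there were 5 among these RNAs, and edgeR and DESeq2 on the recovered reads gave 0 each. The 2 comparisons of old with young gave 1 call each, both in kidney. Between the isochronic groups (IA − IY), where 1.43% of all pairs were called, Snora75, in the nucleolin gene, was 16.9, 23 and 27.5 rpmm in IY and 25.9, 34.3 and 46.4 rpmm in IA, which overlap slightly, with 17.6, 23.1 and 26.1 rpmm in HY and 25.3, 29.5 and 37.3 rpmm in HA. The difference was 0.604 ± 0.129 (limma, adjusted p = 0.0211), and it was not called with the pool in the model (0.543, adjusted p = 0.102), median-ratio scaling (adjusted p = 0.0515) or the snoRNA sum (adjusted p = 0.0876). Leaving out 1 library in turn kept the call in 13 of 16 cases, and it was lost without the IY replicate 15A or 16A or the IA replicate 7A. Between the joined partners of unequal age (HA − HY), where 3.05% of all pairs were called, Snora9, in the noncoding host Snhg15, was 63.9, 78.8 and 98 rpmm in HY and 95.6, 127 and 240 rpmm in HA, which overlap slightly, with 77.1, 85.4 and 149 rpmm in IY and 86.2, 123 and 140 rpmm in IA. The difference was 0.759 ± 0.183 (limma, adjusted p = 0.0106), and the call was kept without each of the 13 libraries in turn. It was lost with scaling by the snoRNA sum (0.573, limma, adjusted p = 0.058).

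In limb muscle the joined partners of unequal age deviated together from their group means in 7 of 7 pairs, and with the pair as a random block 1 more RNA was called there, where 3.41% of all RNAs were called lower. Snora47, in an intron of Zbed3, was 1.07, 1.44 and 1.87 rpmm in HY and 0.37, 0.696 and 1.62 rpmm in HA (lowest, median, highest of 7 each), which overlap, with medians of 0.917 rpmm in IY and 0.78 rpmm in IA. The difference HA − HY was −0.442 ± 0.113 with the block (limma, adjusted p = 0.0143) and −0.442 without it (adjusted p = 0.056). It was not called with the pair as a fixed block (adjusted p = 0.19), where 1.74% of all RNAs were called lower.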

How the data were processed

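Total RNA (miRNeasy) was made into small RNA libraries with the MGIEasy kit, sequenced as single-end reads on a BGISEQ500RS and mapped by the authors with Bowtie within miRMaster, allowing 1 mismatch and keeping 1 paralog of each RNA. The deposited values are a signal in reads per M (mega) mapped reads (rpmm), from libraries of at least 2 M aligned reads. Dividing by the step of the low values gave whole reads for 100% of values up to 1000 reads (tolerance 0.05), from which depths were taken. The 771 aging columns included 3 whose sample could not be settled from its labels, and they were not used. The annotation tables gave the plate of aging libraries (12 had none and were dropped where plate entered a model) and the pool of parabiosis libraries.

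All RNAs at 1 rpmm or more in 10% of a tissue's libraries entered each test, with identical ones counted as 1 and p-values adjusted over all of them within the tissue by the Benjamini-Hochberg method. Spearman's rho with age used 100000 shuffles. All other tests were limma 3.58.1 fits (R 4.3.3, eBayes with trend, two-sided) on log2(rpmm + 1), with all ages, or all 4 parabiosis groups, of a tissue sharing 1 estimate of the spread. The study took several organs from each mouse, so libraries of different tissues share mice, which the titles do not identify. The fits of tissue differences held no term for mouse, age or sex, and their p-values treat all libraries as independent. Within a tissue, samples are taken as separate animals. Alternatives were other scalings, pseudocounts and filters, leaving out libraries, plate or title set as a batch term, and edgeR 4.0.16 and DESeq2 1.42.0 on the recovered reads. Scripts ran in Python 3.11.15 with numpy 2.4.6, scipy 1.17.1, pandas 2.3.3 and matplotlib 3.10.9, and the tests were checked on simulated data.

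Pair numbers were tested as pairing by the correlation of the deviations of joined partners from their group means: it was over 0.1 in 7 of 7 pairs in limb muscle, and in 5 of 7 in heart, 3 of 6 in kidney, 5 of 7 in liver, 1 of 7 in GAT and 1 of 5 in MAT, so that pairing was taken for limb muscle alone. RNAs were named where they were called in at least 3 tissues with age, had the largest rho called in a tissue, were among the 3 with the smallest adjusted p called in a tissue between ages, sexes or parabiosis groups, were among the 10 highest per 100 bases, had a highest tissue median at least 8 times the next, or were Snora7a, Snora21, Snora24, Snora35, Snora73a, Snora73b or any Scarna, and others were chosen after their values were seen. The members, lists and comparisons were chosen with earlier results of these data known, and the setting without the title sets was added after seeing the data.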

Additional observations from a re-analysis of the deposited data

Results flagged for a closer look

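In groups of 4 to 10 libraries, 25 libraries lay farther from the others of their group than Dixon's limit allows, out of 293 groups of the named RNAs tested, and chance gives about 1 in 20. The 3 of Snora35 were libraries of the title sets with high sums: brain replicate 28 at 1 month had 224 rpmm (others 43.8 to 77.1), brain replicate 33 at 9 months 234 rpmm (others 51.9 to 74.3) and lung replicate 48 at 15 months 40 rpmm (others 4.74 to 9.26).

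Most of the libraries far from the others in tissues of the age comparisons were low. In bone, Scarna3a had 25.2 rpmm in replicate 14 at 6 months (others 41.8 to 49.2) and Scarna8 had 2.25 rpmm in replicate 45 at 15 months (others 4.1 to 4.49). In liver, replicate 17 at 21 months was low for both Scarna3a (19.1 rpmm, others 59.4 to 65.6) and Scarna3b (48.1 rpmm, others 118 to 141), and replicate 37 at 1 month was low for Scarna3b (56.7 rpmm, others 95 to 117). In marrow, Snora44 was high in replicate 46 at 6 months (57.2 rpmm, others 21.8 to 31.2) and replicate 04 at 9 months (52.4 rpmm, others 27.8 to 31.1), and Scarna3b was low in replicate 52 at 21 months (24.2 rpmm, others 41.2 to 53.3). Skin replicate 45 at 1 month had 17.8 rpmm of Scarna3a (others 34.6 to 45). Heart had low Snora36b in replicate 42 at 1 month (15.6 rpmm, others 35.5 to 55.6) and replicate 02 at 3 months (30 rpmm, others 60.7 to 61.8), and limb muscle had low Snora44 in replicate 19 at 12 months (15.5 rpmm, others 24.2 to 26.3).

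In MAT, Scarna3b had 74.3 rpmm in replicate 19 at 21 months (others 84.3 to 87.4), Snora36b 63 rpmm in replicate 02 at 9 months (others 83.3 to 96.3), Scarna2 39.7 rpmm in replicate 15 at 18 months (others 63 to 80.5) and Scarna8 4.37 rpmm in replicate 18 at 6 months (others 1.73 to 2.26). Of the RNAs called between the sexes, Snora74a had 6.97 rpmm in GAT replicate 54 at 21 months (others 22.9 to 23.5), Snora81 had 757 rpmm in skin replicate 15 at 9 months (others at most 286) and Snora7a had 87.9 rpmm in skin replicate 01 at 6 months (others 26.5 to 39.5). In the parabiosis cohort, the HY heart 5B was high for both Snora34 (43.9 rpmm, others 16.3 to 24.8) and Snora2b (30.1 rpmm, others 13.8 to 18.2), and the IY kidney 10B was high for Snora9 (149 rpmm, others 77.1 to 90.1).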

How the results depend on the processing

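The counts of calls between ages, sexes and parabiosis groups were small and moved with the processing, while the count of tissue calls (75) ranged from 55 to 86. The tissues that held the tissue calls changed more than this total. With scaling by the snoRNA sum, spleen went from 36 calls to 2 and BAT from 7 to 43. The cause of a change was not tested, apart from settings that test fewer RNAs or libraries. Of 131 counts under settings other than leaving out 1 library, 50 moved by more than 1.5 times.

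Calls with age (6) numbered 1 with median-ratio scaling, 30 with scaling by the snoRNA sum (4 rising, 26 falling), 10 with the title set as a term, 11 in males only, 19 on adjusted p alone and 10 on the absolute rho alone. Calls of later ages against 3 months (3) numbered 1 with a pseudocount of 0.1, 8 with 5, 0 with no filter and 0 with median-ratio scaling, 7 with the snoRNA sum, 33 with plate as a term and 34 in males only. For 21 against 3 months (1), fold and unadjusted p gave 83 and DESeq2 20, and the pseudocount of 0.1, no filter, median-ratio scaling, the snoRNA sum, title set, plate, males only and edgeR gave 0 each. For 3 against 1 month (6), fold and unadjusted p gave 90, median-ratio scaling 13, the snoRNA sum 16 (1 higher, 15 lower), males only 1, edgeR 1 and DESeq2 31. Sex calls (7) numbered 2 with no filter, 1 with median-ratio scaling and 2 with the snoRNA sum.

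For HA − IA (3), fold and unadjusted p gave 16, the stricter filter 8, median-ratio scaling 7, the pool as a term 0, edgeR 6 and DESeq2 11. For HY − IY (0) fold and unadjusted p gave 2. For IA − IY (1), fold and unadjusted p gave 7, the stricter filter 4, median-ratio scaling 0, the snoRNA sum 0, identical RNAs as deposited 3, the pool as a term 0 and DESeq2 4. For HA − HY (1), fold and unadjusted p gave 8, a pseudocount of 5 gave 2 and the pool as a term 2. With the pair number as a replicate block, HA − HY had 2 calls, HA − IA 2, IA − IY 1 and HY − IY 0, and with a fixed block HA − HY had 1. In heart the numbers were not taken as pairing, and the block gave adjusted p of 0.0277 for Snora34, 0.0428 for Snora2b and 0.0883 for Snora57.

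Leaving out 1 library at a time gave 0 to 10 calls for 21 against 3 months, 1 to 15 for 3 against 1 month, 0 to 19 for HA − IA, 0 to 13 for IA − IY, 1 to 2 for HA − HY and 0 to 0 for HY − IY. HA − IA fell to 0 without the HA heart 1A and rose to 18 without HA 11A, 19 without IA 19A and 10 without IA 6A. IA − IY rose to 13 without the IA heart 19A. The count for 21 months rose to 10 without SCAT replicate 43 at 3 months and 7 without pancreas replicate 54, and that for 3 against 1 month to 15 and 14 without pancreas replicates 10 and 25, and it fell to 1 without MAT replicate 21.

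Of 1161 values of named RNAs under other settings, 940 kept their direction and side of the threshold, 202 kept their direction alone and 19 reversed, all with scaling by the snoRNA sum. These were Scarna3a in MAT between 1 and 3 months (−0.397) and, in spleen, Snora73a (−0.445), Snora28 (−0.375), Snora7a (−0.464), Snora44 (−0.167), Snora21 (−0.0152), Snora3 (−0.344), both Snora16a entries (−0.399), Snora31 (−0.386), Snora30 (−0.505), Snora34 (−0.393), Snora73b (−0.351), Snora74a (−0.0315), Snora2b (−0.0239), Snora33 (−0.111), Scarna2 (−0.134), Scarna10 (−0.077) and Snora15 (−0.133). That scaling moved the median of all RNAs by −0.61 to 1.69 between tissues, against −0.376 to 0.483 as deposited. A level of 1 rpmm is few reads in the shallowest libraries, which limits Scarna8, Scarna9 and Snora35 outside brain.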
